A study of Danio rerio with 16 samples.

Results

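Myoglobin (mb, ENSDARG00000031952) is 1 of the 31388 gene IDs in a table of TPM, the length-corrected share of each gene's transcripts in a library scaled to a fixed total. It was chosen by its own TPM in these 16 libraries, which were highest in sorted endothelial cells, and by its standing beside the cardiac myosin light chain MYL7 (ENSDARG00000019096). The levels and differences of mb and MYL7 are therefore given as a description, with no test. The adult zebrafish were 3 to 9 months old, and every fish, uninjured ones included, carried both kdrl:mCherry and postnb:citrine. Hearts were cryoinjured, that is, damaged locally by freezing, and taken at 7 days post injury (7 dpi), or left uninjured. Cells of the ventricular apex were released with trypsin from 3 to 5 pooled hearts per library and sorted by fluorescence. The groups were mCherry-positive cells at 7 dpi (4 libraries, pools 5, 6, 7 and 9), mCherry-positive cells of uninjured hearts (3 libraries, pools 2, 3 and 4), citrine-positive cells at 7 dpi (3 libraries, pools 7, 9 and 10) and cells positive for neither reporter at 7 dpi (6 libraries, pools 5 to 10), called double-negative. The kdrl promoter drives mCherry in endothelium and endocardium, and the postnb promoter drives citrine in activated fibroblasts. The double-negative sort is a mixture, and no library is a sort of cardiomyocytes.

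Myoglobin is a haem protein of the globin family that binds oxygen inside cells. It is best known from the cytoplasm of cardiomyocytes and oxidative skeletal muscle fibres, where it stores oxygen, carries it towards mitochondria, and reacts with nitric oxide and nitrite. In common carp, another cyprinid fish, myoglobin has also been found outside muscle and responds to low oxygen there. MYL7 encodes a light chain of cardiac myosin and is restricted to heart muscle, which is why it stands here as the measure of cardiomyocyte RNA.

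The mCherry sort carried its defining marker, and the citrine sort had the highest sums of fibroblast and epicardial markers. kdrl, the endothelial receptor for vascular endothelial growth factor whose promoter drives the mCherry reporter, ran between 159 and 266 TPM in the mCherry sort after injury and between 283 and 467 TPM without it. In the citrine sort it stayed between 0.74 and 1.73 TPM, and double-negative libraries had 24.0 to 57.0 TPM. The summed TPM of 15 fibroblast and epicardial markers was 7296 to 15280 in citrine-positive libraries and 2371 to 6578 in double-negative ones. In mCherry-positive libraries it was at most 2490. The lowest citrine-positive sum, 7296, was that of pool 7, where the cardiac sarcomere genes summed to more, 9838 TPM. The red cell haemoglobin hbaa1 had 1678 to 20602 TPM in double-negative libraries, against 3.46 to 145 TPM in the injured mCherry sort, and that sort had 4.6 to 25.2 TPM in uninjured hearts. The 5 libraries from pools 9 and 10 gave 25.7 to 35.8% of their TPM to a dominant pair of IDs, si:dkeyp-3b12.8 together with si:dkeyp-3b12.11, whose share elsewhere did not pass 2.09%. Every other TPM in those 5 libraries is lower for it. All uninjured libraries came from pools 2 to 4 and no injured one did, so injury and pool cannot be told apart. In sorted bulk RNA, fewer cells of a type and less RNA per cell cannot be told apart either.

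mb was highest in mCherry-positive cells. At 7 dpi it had 7679, 7025, 6531 and 3845 TPM in pools 5, 6, 7 and 9, with a mean of 6270 ± 1684 (SD, n = 4). In uninjured hearts it had 12332, 11214 and 9674 TPM in pools 2, 3 and 4, with a mean of 11073 ± 1335 (SD, n = 3). The groups did not overlap, and every mCherry-positive library, injured or not, lay above every library of the other sorts.

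In citrine-positive cells mb had 1004, 158 and 188 TPM in pools 7, 9 and 10 (450 ± 480, SD, n = 3). In double-negative cells it ranged from 745 to 1458 TPM with a median of 1040 (1091 ± 252, SD, n = 6). These ranges overlap because citrine-positive pool 7 lay inside the double-negative range, while pools 9 and 10 lay below all of them. The order of the group means was thus mCherry-positive uninjured, mCherry-positive at 7 dpi, double-negative and citrine-positive, and only the last 2 neighbours in that order were not separated in every library.

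**Figure D1:**
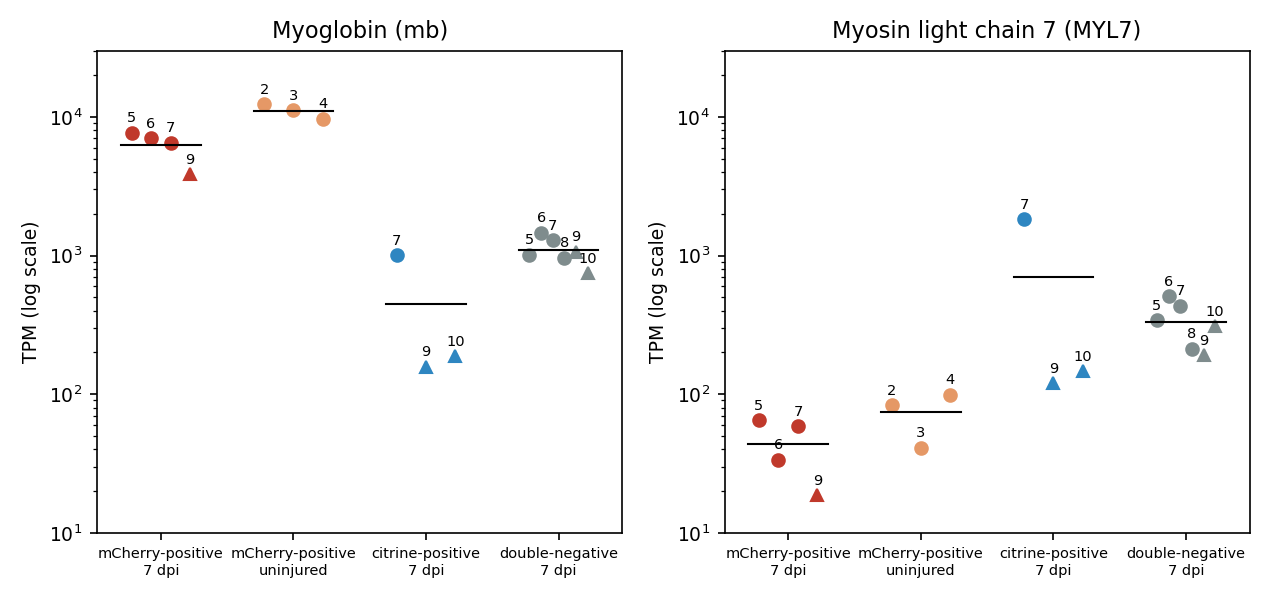
TPM of mb (left) and of MYL7 (right) on log axes in each of 16 libraries, with pool numbers beside the points, triangles for pools 9 and 10 and a line at each group mean. mb lies between 3845 and 12332 TPM in the mCherry-positive libraries and at or under 1458 TPM elsewhere, while MYL7 lies under 100 TPM in the mCherry-positive libraries and above it elsewhere.

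These levels made mb one of the most abundant transcripts of the endothelial sort. By rank among all IDs it stood 18th, 16th, 14th and 22nd in mCherry-positive pools 5, 6, 7 and 9 at 7 dpi, and 11th, 13th and 11th in uninjured pools 2, 3 and 4. It ranked between 54 and 329 in citrine-positive libraries and between 54 and 92 in double-negative ones. Its share of all TPM was 0.385 to 0.768% in mCherry-positive libraries at 7 dpi, 0.967 to 1.23% in uninjured ones, 0.0158 to 0.1% in citrine-positive and 0.0745 to 0.146% in double-negative libraries. The 10 IDs that exceeded mb in all 3 uninjured libraries had clone-style names or none. Several of the unnamed ones had an identical mean of 31130 TPM, so these ranks count IDs that may not be distinct transcripts, which was not tested.

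MYL7 ran the other way between sorts. It had 64.9, 33.6, 58.9 and 18.7 TPM in mCherry-positive pools 5, 6, 7 and 9 at 7 dpi (44.0 ± 21.6, SD, n = 4) and 83.5, 41.1 and 98.8 TPM in uninjured pools 2, 3 and 4 (74.5 ± 29.9, SD, n = 3). It had 1831, 120 and 146 TPM in citrine-positive pools 7, 9 and 10, and 190 to 508 TPM with a median of 326 in double-negative libraries. No mCherry-positive library reached the lowest citrine-positive or double-negative one, and the mCherry-positive groups overlapped each other.

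Per unit of MYL7, mb was therefore far more abundant in the endothelial sort. The ratio of mb to MYL7 TPM was 118, 209, 111 and 205 in mCherry-positive pools 5, 6, 7 and 9 at 7 dpi (161 ± 53.5, SD, n = 4). It was 148, 273 and 97.9 in uninjured pools 2, 3 and 4 (173 ± 90.0, SD, n = 3). It was 0.548, 1.32 and 1.29 in citrine-positive pools 7, 9 and 10 and 2.41 to 5.62 in double-negative libraries, with a median of 2.97. The injured and uninjured ranges overlap, and the lowest mCherry-positive ratio, 97.9, lies above the highest of the other sorts, 5.62.

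MYL7 was not alone in being scarce in the mCherry-positive sort. The list of cardiac sarcomere genes, which build the contractile filaments of heart muscle, held 26 IDs with MYL7. Without tpm4a, its summed TPM was 209 to 303 in mCherry-positive libraries at 7 dpi, 195 to 345 in uninjured ones, 618 to 8582 in citrine-positive and 964 to 2634 in double-negative libraries. mb alone exceeded that sum by 12.7 to 36.7 times in mCherry-positive libraries at 7 dpi and by 32.5 to 63.1 times in uninjured ones. In citrine-positive libraries mb came to 0.117 to 0.265 of the sum, and in double-negative ones to 0.553 to 1.11. Of the 26 IDs, 3 were listed at 0 in all 7 mCherry-positive libraries and 12 were above 0 in all 7, and none of the 26 reached the lowest mb level there.

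tpm4a, a tropomyosin gene that is also used outside heart muscle, was left out of that sum after its values were seen. It averaged 456 TPM in mCherry-positive cells at 7 dpi, 981 in uninjured ones, 715 in citrine-positive and 477 in double-negative cells. It had at least 281 TPM in each mCherry-positive library. With tpm4a in the sum, mb was 4.93 to 12.7 times the whole list at 7 dpi, at least 7.59 times (median 8.66) in uninjured mCherry-positive libraries, 0.102 to 0.167 times in citrine-positive and 0.429 to 0.769 times in double-negative ones. In mCherry-positive cells the whole sum was 515 to 780 TPM at 7 dpi and 798 to 1477 TPM without injury, and the uninjured sums overlapped the lowest citrine-positive (1089 TPM) and double-negative (1316 TPM) libraries.

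**Figure D2:**
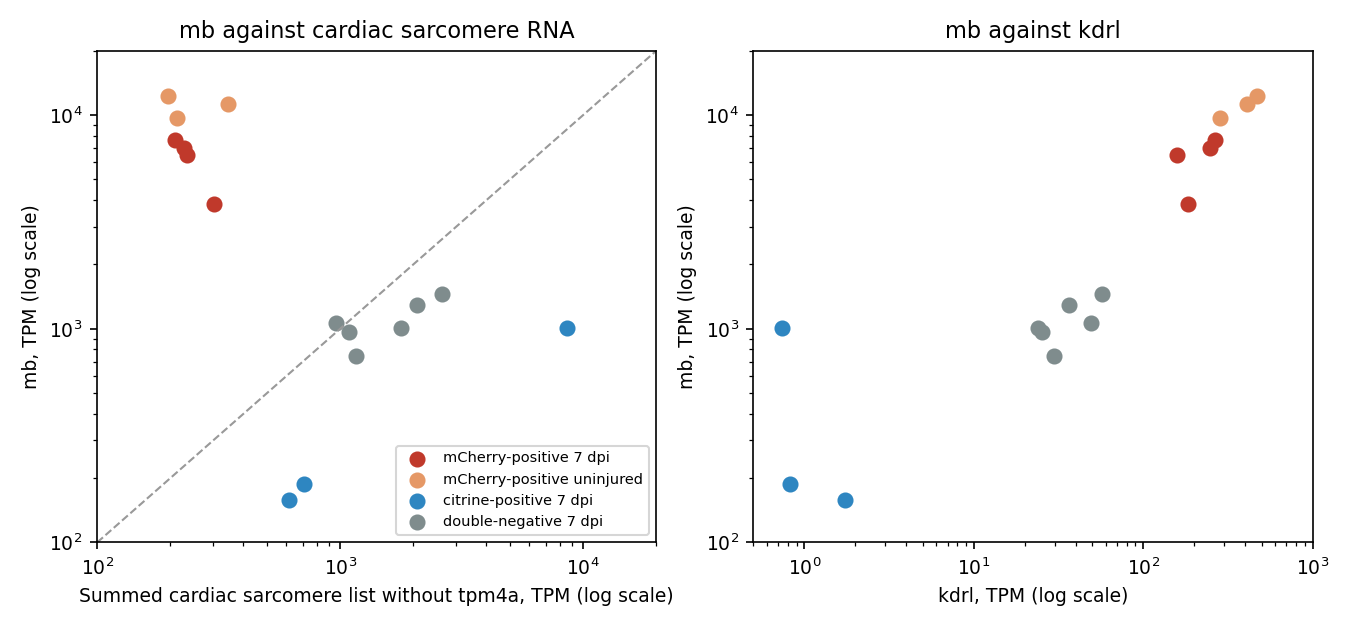
TPM of mb in each of 16 libraries against the summed TPM of the cardiac sarcomere list without tpm4a (left, dashed line at equal values) and against the TPM of kdrl (right), all axes logarithmic, coloured by group. On the left the mCherry-positive libraries stand far above the dashed line and 1 of the other 9 libraries lies above it, with 1068 TPM of mb against a sum of 964. On the right the mCherry-positive and double-negative libraries lie on 1 band of 21.0 to 42.3 mb per kdrl, and the citrine-positive libraries lie off it.

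Single sarcomere genes behaved like the sum. TNNT2 (ENSDARG00000020610), cardiac troponin T of the thin filament, averaged 105 ± 99.9 TPM in mCherry-positive cells at 7 dpi (SD, n = 4), 65.8 ± 56.6 in uninjured ones (n = 3), 923 ± 1275 in citrine-positive (n = 3) and 509 ± 217 in double-negative cells (n = 6). Troponin I TNNI1 (ENSDARG00000052708) averaged 9.08, 18.1, 306 and 180 TPM in the same order of groups. Troponin C tnnc1a averaged 15, 14.1, 289 and 139 TPM, and the light chain cmlc1 14.4, 10.4, 309 and 128 TPM. The myosin heavy chain myh7ba was near 0 in mCherry-positive cells, at 0.0675 TPM at 7 dpi and 1.03 TPM uninjured, against 30.9 TPM in citrine-positive and 6.54 TPM in double-negative cells.

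Other genes were tested with limma on log2(TPM + 1) over all 16 libraries, with Benjamini-Hochberg adjustment over the 19039 IDs tested and a call at an adjusted p under 0.05. Differences of these genes are on that log2 scale, on which changes at low TPM come out too small. Between mCherry-positive and double-negative cells at 7 dpi, 2083 IDs were called, 10.9% of those tested, with 4.06% higher and 6.88% lower in mCherry-positive cells and a median difference of -0.10 over all IDs. Of the 22 sarcomere IDs tested besides MYL7, none was called higher and 10 were called lower, with a median of -2.52. TNNI1 was lower by -4.19 (SE 0.65, adjusted p = 3.35e-04 by limma), tnnc1a by -3.37 (SE 0.58, adjusted p = 8.95e-04) and myh7ba by -2.75 (SE 0.51, adjusted p = 0.00157). Leaving out mCherry-positive pool 5 gave 6 of the 22 called lower.

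Against citrine-positive cells, 2268 IDs were called (11.9%), 7.07% higher and 4.84% lower in mCherry-positive cells, with a median of 0.19 over all IDs. Of the same 22 sarcomere IDs, none was called higher and 11 were called lower, with a median of -2.43. Without citrine-positive pool 7 it was 5 of 22, and in a fit on these groups alone, which called 1082 IDs in all, 2 of 22. Within pools 2 to 8 it was 14 of 22, with 1510 IDs called in all and pool 7 as the 1 citrine-positive library, assumed to vary like the other groups.

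The gap in mb itself ran opposite to these genes. mb was 5.75-fold higher in mCherry-positive than in double-negative cells at 7 dpi by group means, a difference of 2.51 on the log2 scale, and 63 of the 19039 IDs tested, 0.331%, differed by more in that direction. It was 13.9-fold higher in mCherry-positive than in citrine-positive cells, a log2 difference of 4.28 that 135 IDs, 0.709%, exceeded. Because mb was chosen for its high level in this sort, both places among all IDs follow from that choice. Within pools 2 to 8 the difference from citrine-positive cells was 2.81, since citrine-positive pool 7, with 1004 TPM, is then compared alone.

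The same direction held in each pair of libraries with the same pool number. mb was 7.58-fold higher in mCherry-positive than in double-negative cells in pool 5, 4.82-fold in pool 6, 5.05-fold in pool 7 and 3.6-fold in pool 9. MYL7 in mCherry-positive cells was 0.19, 0.0663, 0.136 and 0.0986 of its double-negative level in the same pools. Against citrine-positive cells, mb was 6.5-fold higher in mCherry-positive cells in pool 7 and 24.3-fold higher in pool 9. These pairs share a number in the labels, and whether they came from the same hearts is not spelled out there.

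Most listed cardiac genes outside the sarcomere were lower in mCherry-positive than in double-negative cells, but their summed TPM was not. That sum was 94.8 to 740 in mCherry-positive libraries at 7 dpi and 122 to 399 uninjured. It was 122 to 1100 in citrine-positive and 163 to 461 in double-negative libraries. Of 14 tested genes of cardiac calcium handling, energy supply and natriuretic peptides, none was called higher in mCherry-positive than in double-negative cells. The median was -1.48 and 4 were called lower, where 4.06% of all IDs tested were higher and 6.88% lower. The muscle creatine kinase ckma, which buffers ATP, averaged 3.43 TPM in mCherry-positive cells at 7 dpi, 7.92 TPM uninjured, 63.8 TPM in citrine-positive and 32.0 TPM in double-negative cells, and was lower by -3.14 in mCherry-positive than in double-negative cells (SE 0.66, adjusted p = 0.00401, limma). The other 3 called lower were CASQ2, FABP3 and nppa, and on these groups alone 7 of the 14 were called lower and 1, nppb, higher. The atrial natriuretic peptide nppa averaged 1.52, 1.98, 52.1 and 21.4 TPM in the same order of groups. The related peptide nppb had its highest means in mCherry-positive cells, as mb did. It averaged 298 ± 260 TPM there at 7 dpi (SD, n = 4), 137 ± 139 uninjured, 41.4 ± 67.8 in citrine-positive and 40.5 ± 27.6 in double-negative cells. Unlike mb, nppb had a higher mean at 7 dpi than uninjured, a difference that was not called, and similar means in the other sorts. It was called against citrine-positive cells (4.21, adjusted p = 0.0145, limma) and not against double-negative cells (2.52, SE 0.93, adjusted p = 0.0937, limma). The second comparison passed on these groups alone (adjusted p = 0.0274, limma) and without mCherry-positive pool 9 (adjusted p = 0.0414, limma). The first call was lost within pools 2 to 8, on these groups alone, and without mCherry-positive pool 5, citrine-positive pool 9 or citrine-positive pool 10. All 8 tested cardiac transcription factors missed the threshold of this fit in all 3 comparisons of mCherry-positive cells, although 1 or 2 passed it under median-of-ratios scaling or without 1 of mCherry-positive pools 5, 7 and 9 or double-negative pool 9. Over all IDs tested, 0.693% were called against uninjured, 10.9% against double-negative and 11.9% against citrine-positive cells. At such shares 0 of 8 says little about these genes.

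Skeletal muscle, the other main site of myoglobin, left little trace. Of 11 listed skeletal muscle IDs, 6 were listed at 0 in all 7 mCherry-positive libraries, fast myosin heavy chain and parvalbumin genes among them, and no member passed 20.4 TPM there. Their summed TPM, 9.38 to 34.0 at 7 dpi and 8.99 to 36.8 uninjured, overlapped that of double-negative libraries, 13.1 to 55.5. The 5 tested members were not called in any comparison of mCherry-positive cells. Over all IDs tested, 0.693% were called against uninjured, 10.9% against double-negative and 11.9% against citrine-positive cells, so 0 of 5 says little about these genes. Against double-negative cells 1 was called lower within pools 2 to 8 and on the groups alone. Against citrine-positive cells 1 was called lower without citrine-positive pool 10.

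The levels of mb followed kdrl across the endothelial and mixed sorts. The ratio of mb to kdrl TPM was 28.9, 28.3, 41.0 and 21.0 in mCherry-positive pools 5, 6, 7 and 9 at 7 dpi (29.8 ± 8.28, SD, n = 4). It was 26.4, 27.3 and 34.2 in uninjured pools 2, 3 and 4 (29.3 ± 4.26, SD, n = 3) and 21.7 to 42.3 in double-negative libraries (31.4 ± 8.39, SD, n = 6). These 3 groups overlap fully, although kdrl itself differed 5.8-fold in means between mCherry-positive and double-negative cells at 7 dpi. In citrine-positive libraries the ratio was 91.5 to 1357, above every other library, with kdrl at 0.74 to 1.73 TPM.

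Double-negative libraries thus held mb at 17.4% of the mCherry-positive mean at 7 dpi and kdrl at 17.2%. Over the 15 endothelial list members with at least 20 TPM in mCherry-positive cells at 7 dpi, kdrl included, that share ran between 11.9 and 31.0% with a median of 22.2%, so mb lies inside their range. In citrine-positive libraries mb stood at 7.18% of the mCherry-positive mean, while the same 15 genes ran between 0.0819 and 8.74% with a median of 0.879%. For 10 endocardial list members above the same 20 TPM, double-negative shares ran wider, from 14.0 to 86.1% with a median of 39.9%, well above mb. Their citrine-positive shares ran from 0.129 to 61.2% with a median of 4.97%. By pool number, double-negative mb was 13.2, 20.7, 19.8 and 27.8% of the mCherry-positive level in pools 5, 6, 7 and 9, and kdrl was 9.01, 23.0, 22.9 and 26.8%. Citrine-positive pool 7, which had the most mb of its group, also had the highest MYL7, TNNT2 and sarcomere sum of all 16 libraries, and how far cardiomyocyte RNA accounts for its mb was not tested.

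The endothelial list itself marks the sort. Of its 20 tested members, 15 were called higher in mCherry-positive than in double-negative cells, with a median of 2.11. Against citrine-positive cells 16 were called higher, with a median of 5.11, and none was called lower in either comparison. The shares of all IDs tested were 4.06% and 7.07% higher, and 6.88% and 4.84% lower. flt1, a decoy receptor for vascular endothelial growth factor, averaged 203 TPM in mCherry-positive cells at 7 dpi, 371 TPM uninjured, 1.1 TPM in citrine-positive and 24.1 TPM in double-negative cells. It was higher in mCherry-positive than in double-negative cells by 2.94 (SE 0.43, adjusted p = 2.32e-04, limma), and the adhesion molecule cdh5 by 2.25 (SE 0.36, adjusted p = 4.84e-04, limma). Of 12 endocardial members, 6 were higher and 1, NRG1, lower in each of these comparisons, though NRG1 was near 0 TPM in mCherry-positive cells and its calls were lost within pools 2 to 8. Its call against double-negative cells was also lost with a pseudocount of 5 and without mCherry-positive pool 5, 6 or 7. NOTCH1 (ENSDARG00000052094), a receptor of the Notch pathway, had the lowest adjusted p of the list against double-negative cells (2.42, SE 0.28, adjusted p = 2.4e-05, limma), and SPOCK3 the greatest difference against double-negative (2.86) and citrine-positive (8.95) cells. On the TPM scale, SPOCK3 had the highest 7 dpi mean of the listed endothelial and endocardial genes, with 1593 TPM in mCherry-positive cells at 7 dpi and 2464 TPM uninjured.

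After injury, mb was lower. Its mean at 7 dpi was 56.6% of the uninjured mean, a difference of -0.86 on the log2 scale, and 14.7% of the 19039 IDs tested were lower still. MYL7 stood at 59.1% and kdrl at 55.4% of their uninjured means, so the ratio of mb to MYL7 differed by -0.06 on the log2 scale and the ratio to kdrl stayed within the spread between libraries. With the whole sarcomere sum in place of MYL7 that ratio differed by -0.08, and with the sum without tpm4a, a choice made after the values were seen, by -0.85.

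Whether the injured and uninjured libraries overlapped in mb depended on the scaling. Leaving out 1 library at a time kept the mb difference between -0.97 and -0.64, with -0.64 in the absence of mCherry-positive pool 9. Rescaling after leaving out the dominant pair of IDs raised mb in pool 9 to 5172 TPM, the 7 dpi mean to 6612 ± 1062 (SD, n = 4), and left the groups apart. Under median-of-ratios scaling, which sets libraries to a common median gene, the scaled mb values were 3637 to 8237 at 7 dpi and 8171 to 10063 uninjured, so that pool 7 at 7 dpi passed uninjured pool 3 and the groups overlapped.

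Few genes were called between 7 dpi and uninjured mCherry-positive cells. The fit called 132 IDs, 0.693% of those tested, with 0.42% higher and 0.273% lower at 7 dpi and a median of -0.06 over all IDs. The count was 83 without uninjured pool 2 and 205 without 7 dpi pool 9, and a fit on these groups alone called 0 in limma with 1306 IDs at an unadjusted p under 0.05. None of the 22 sarcomere, 20 endothelial, 12 endocardial or 35 hypoxia response members tested was called, with medians of -0.27, -0.33, -0.42 and 0.12. kdrl itself missed the threshold (-0.85, SE 0.37, adjusted p = 0.38, limma).

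Markers of other cells were read in the same libraries, and their ranges at 7 dpi and without injury overlapped. The summed TPM of 19 macrophage and leukocyte markers was 340 to 2053 at 7 dpi and 193 to 1216 in uninjured mCherry-positive libraries, and the leukocyte marker ptprc had 7.06 to 39.9 TPM at 7 dpi and 3.7 to 8.62 TPM uninjured. The fibroblast and epicardial sum was 808 to 2490 at 7 dpi and 669 to 954 uninjured. All 18 tested macrophage and leukocyte members had positive differences, with a median of 1.07, and 1 of them, MFAP4 (ENSDARG00000038681), was called (4.12, SE 0.52, adjusted p = 5.29e-04, limma). The extracellular matrix gene FN1 (ENSDARG00000019815) rose too, with 45.6 TPM at 7 dpi and 1.73 TPM uninjured (3.92, SE 0.49, adjusted p = 5.29e-04, limma). Both calls were lost in the fit on these groups alone. The part of these cells in the lower share of mb was not tested.

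The other globins did not resemble mb. Of 5 further IDs for globins used outside red cells, 2 passed the filter on low values. CYGB, cytoglobin, a globin known from fibroblast-like cells in mammals, averaged 11.1 ± 3.65 TPM in mCherry-positive cells at 7 dpi (SD, n = 4), 13.6 uninjured (11.3 to 17.2, n = 3), 65.9 ± 38.1 in citrine-positive (n = 3) and 23.3 ± 7.36 in double-negative cells (n = 6). It was lower in mCherry-positive than in citrine-positive cells by -2.38 (SE 0.41, adjusted p = 4.98e-04, limma), the reverse of mb. In citrine-positive against double-negative cells, where 9.85% of IDs were called, 1.78% higher and 8.08% lower, CYGB was higher by 1.37 (SE 0.38, adjusted p = 0.0243, limma), a call lost without citrine-positive pool 7 or double-negative pool 9. With pool number as a block, which called 934 IDs in place of 1876 there, it was higher by 1.64 (adjusted p = 0.0377, limma). In mCherry-positive against citrine-positive cells, that block on 2 shared pools called no ID, CYGB included (-2.62, adjusted p = 0.448, limma). xgb, the membrane-bound globin X of fish, averaged 9.83 TPM at 7 dpi only through pool 5, with 38.5 TPM there and at most 0.84 TPM in the other 3 libraries.

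Red cell genes separated the sorts in yet another way. Of 7 tested IDs for haemoglobins and red cell haem synthesis, 5 were called lower in mCherry-positive than in double-negative cells. The median of the 7 was -5.91, where 6.88% of all IDs tested were called lower. None of the 7 was called against citrine-positive cells, where 7.07% of all IDs tested were called higher and 4.84% lower. There, 1 was called higher without mCherry-positive pool 7 or 9 or citrine-positive pool 7. hbaa1 was lower by -7.32 (SE 0.88, adjusted p = 3.63e-05, limma), at 54.3 ± 62.5 TPM in mCherry-positive cells at 7 dpi and 7008 ± 7089 TPM in double-negative cells. mb had no such excess in the double-negative sort.

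General haem synthesis supplies the oxygen-binding group of every globin. Of its 19 tested members, 1, ALAS1, was called higher in mCherry-positive than in citrine-positive cells and 0 lower. Over all IDs tested, 7.07% were called higher and 4.84% lower there, so the list did not stand out. ALAS1, the first and rate-limiting enzyme of that pathway in most tissues, averaged 135 ± 70.4 TPM in mCherry-positive cells at 7 dpi, 186 uninjured (162 to 212), 25.4 ± 17.2 in citrine-positive and 62.4 ± 23.3 in double-negative cells. It was higher against citrine-positive cells by 2.30 (SE 0.54, adjusted p = 0.00722, limma) and not called against double-negative cells (0.97, SE 0.46, adjusted p = 0.206, limma). The call against citrine-positive cells was lost on these groups alone (adjusted p = 0.103, limma), and without mCherry-positive pool 9 ALAS1 was also called against double-negative cells (adjusted p = 0.0208, limma). Of the 19 tested list members, 0 were called higher and 4 lower against double-negative cells, beside 4.06% and 6.88% of all IDs tested. Among the 4 was the biliverdin reductase blvrb, lower by -3.90 (SE 0.72, adjusted p = 0.00156, limma). That count of 4 was 1 without double-negative pool 7 and 2 without mCherry-positive pool 5 or 6 or double-negative pool 6, 8 or 10.

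Outside the vessel markers, the listed gene whose level followed mb most closely belonged to oxygen sensing. EPAS1 (ENSDARG00000057671), a hypoxia-inducible factor best known from endothelium, averaged 219 ± 78.7 TPM in mCherry-positive cells at 7 dpi, 531 ± 148 uninjured, 4.35 ± 0.764 in citrine-positive and 30.5 ± 14.3 in double-negative cells. It was higher in mCherry-positive cells by 2.84 against double-negative cells (SE 0.34, adjusted p = 3.63e-05, limma) and by 5.30 against citrine-positive cells (SE 0.40, adjusted p = 5.23e-08, limma). mb was chosen for its high level in this sort, and a gene picked for following mb tends to be high there too. These p-values are therefore no separate evidence on EPAS1 and mb. Between 7 dpi and uninjured cells EPAS1 differed by -1.30 (SE 0.40, adjusted p = 0.179, limma), with 137 to 291 TPM at 7 dpi and 360 to 621 TPM uninjured, so that the libraries did not overlap although the call was missed.

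EGLN1 (ENSDARG00000038996), a prolyl hydroxylase that marks hypoxia-inducible factors for removal when oxygen is plentiful, averaged 32.2, 31.5, 0.703 and 5.34 TPM in mCherry-positive 7 dpi, mCherry-positive uninjured, citrine-positive and double-negative cells. It was higher in mCherry-positive than in double-negative cells by 2.43 (SE 0.51, adjusted p = 0.00394, limma). VEGFA (ENSDARG00000103542), the growth factor those transcription factors induce, was lower by -2.59 in that comparison (SE 0.45, adjusted p = 9.48e-04, limma). The shares over all IDs tested were 4.06% higher and 6.88% lower against double-negative cells, and 7.07% and 4.84% against citrine-positive cells. Of 35 tested hypoxia response members, 5 were called higher and 3 lower against double-negative cells, with a median of 0.39. Against citrine-positive cells it was 10 higher and 1 lower, with a median of 1.24. The other 3 higher against double-negative cells were vhl, P4HA1 and 1 of the adrenomedullin IDs (ADM), and IGFBP1 and the other ADM ID were lower with VEGFA. P4HA1 (adjusted p = 0.048, limma) lost its call in 13 of 17 alternative settings, and vhl and the higher ADM ID in 7 of 17 each. IGFBP1 and VEGFA kept theirs in all 17, and the lower ADM ID lost its call in 1.

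The count of higher hypoxia response members varied with the settings. Under median-of-ratios scaling, which moved the median of all IDs by -0.15 and -0.33 in these comparisons, it was 2 and 6. Against double-negative cells it ran from 2 (without mCherry-positive pool 5, or double-negative pool 5 or 10) to 8 (without mCherry-positive pool 9), and against citrine-positive cells from 6 (without mCherry-positive pool 5, or citrine-positive pool 9 or 10) to 15 (without mCherry-positive pool 9). On the compared groups alone it was 2 against citrine-positive cells, and within pools 2 to 8 it was 4.

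Nitric oxide is scavenged or made by myoglobin depending on oxygen, and its handling was described for that reason. GCH1, the first enzyme in the synthesis of the cofactor of nitric oxide synthases, averaged 25.1 TPM in mCherry-positive cells at 7 dpi, 23.3 uninjured, 0.463 in citrine-positive and 4.07 in double-negative cells. It was higher by 2.33 against double-negative cells (SE 0.45, adjusted p = 0.00224, limma) and by 4.05 against citrine-positive cells (SE 0.54, adjusted p = 3.01e-05, limma). Of 19 tested members, GCH1 and gpx4a were the 2 called higher against double-negative cells and gpx1a and SOD2 the 2 called lower, with a median of 0.07. gpx4a lost its call within pools 2 to 8 and without mCherry-positive pool 5 or 6 or double-negative pool 8. SOD2 lost its call within pools 2 to 8, with a pseudocount of 0.1, without the filter, and without mCherry-positive pool 5, 6 or 7 or double-negative pool 5. GCH1 and gpx1a kept theirs in all 17 alternative settings. Without 1 library each, the counts ran from 1 to 3 higher and from 1 to 2 lower, and 4 were lower under median-of-ratios scaling. The peroxide-clearing gpx1a was lower by -3.60 (SE 0.50, adjusted p = 1.26e-04, limma). Over all IDs tested, 4.06% were called higher and 6.88% lower against double-negative cells.

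Genes known to control the myoglobin gene of mammals showed no common direction. Of 18 tested, 0 were called higher and 3 lower in mCherry-positive than in double-negative cells, with a median of -0.19, and 2 higher and 4 lower against citrine-positive cells, with a median of 0.40. NFATC2, a calcium-dependent transcription factor, averaged 36.9 TPM in mCherry-positive cells at 7 dpi and 6.71 TPM in citrine-positive cells (2.79, SE 0.64, adjusted p = 0.00617, limma), a call lost within pools 2 to 8, on these groups alone and without citrine-positive pool 10. The 2 higher became 0 in both of those fits, and 1 without mCherry-positive pool 6 or citrine-positive pool 7, while the 4 lower became 2 without citrine-positive pool 7 and the 3 lower against double-negative cells became 1 without mCherry-positive pool 6. The channel TRPC6 (ENSDARG00000056625) was lower against citrine-positive cells by -2.92 (SE 0.51, adjusted p = 5.71e-04, limma). Fatty acid oxidation, the main fuel pathway of heart muscle, had none of 20 tested members higher and 2, ACADS and cpt1ab, lower against double-negative cells, with a median of -0.49. That count was 6 without mCherry-positive pool 9, and 1 without mCherry-positive pool 5, 6 or 7 or double-negative pool 9. For both lists, the shares over all IDs tested were 4.06% higher and 6.88% lower against double-negative cells. Against citrine-positive cells they were 7.07% and 4.84%.

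The genes most like mb were sought by the Pearson correlation of log2(TPM + 1) over all 16 libraries, among the 12783 IDs that averaged 5 TPM or more in 1 group. The libraries share their sorts and pools, so such a value reads the differences between groups too, and it is given with no p. The median was 0.169, and 180 IDs, 1.41%, were above 0.9. kdrl reached 0.917 and stood 123rd, while MYL7, at -0.533, stood at rank 11666.

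The 10 named genes at the top were arhgap29a, wnk3, SFRP5, TFPI2, SEMA3A, HYAL2, ADORA2A, shank3b, epoa and cldc1, with correlations of 0.986 for arhgap29a down to 0.973 for cldc1. arhgap29a averaged 181 TPM in mCherry-positive cells at 7 dpi, 320 uninjured, 9.5 in citrine-positive and 32.2 in double-negative cells. The kinase wnk3, a regulator of ion cotransport, averaged 170, 342, 2.14 and 22.0 TPM in that order of groups, and ADORA2A, a receptor for adenosine, 67.7, 124, 2.65 and 10.8 TPM. epoa, erythropoietin, the hormone of red cell formation, which zebrafish are known to express in the heart, had 148 to 741 TPM in mCherry-positive libraries at 7 dpi, 535 to 876 TPM uninjured, at most 13.6 TPM in citrine-positive libraries, with 33.5 to 111 TPM in the double-negative sort. Their order of groups follows from how they were chosen, and mb exceeded each of them in mean TPM in every group.

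**Figure D3:**
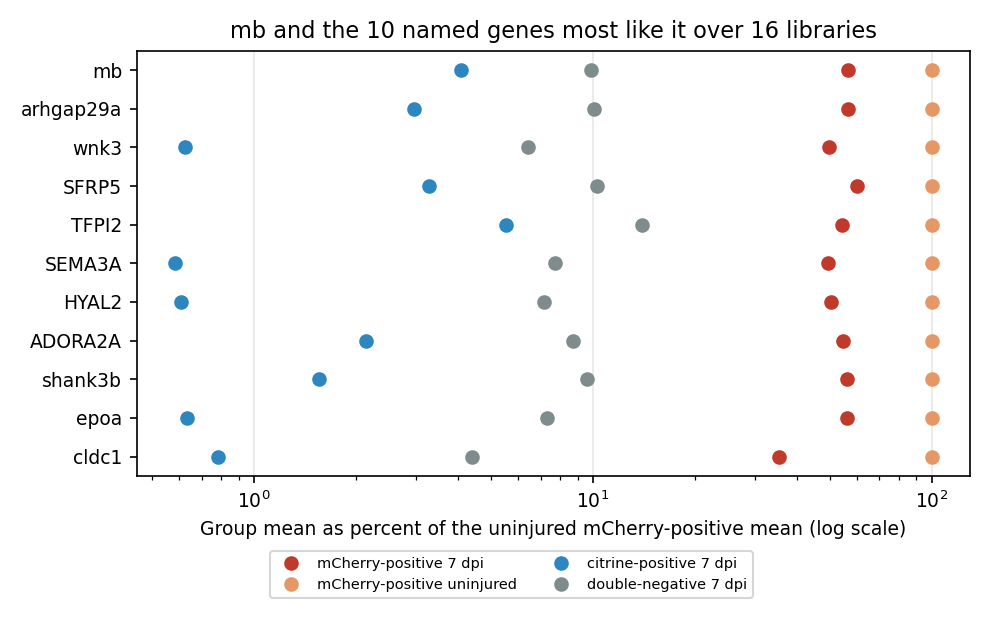
Mean TPM of mb and of the 10 named genes with the highest correlation with it over 16 libraries, in each group, as percent of the gene's mean in uninjured mCherry-positive cells, on a log axis with 1 row per gene. mb stands at 56.6% at 7 dpi, and the other genes, chosen by that correlation, have the same order of groups.

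Within the 7 mCherry-positive libraries alone, where no other sort enters, the order changed. Among 12608 IDs, 143, or 1.13%, were above 0.9. kdrl, at 0.856, stood at rank 254, and MYL7, at 0.745, stood at rank 667. The 10 named genes at the top were tuft1a, wnk3, TFPI2, SLC22A31, ubtf, SEMA3A, PER2, RND3, gnb1b and rhoab, with 0.991 for tuft1a down to 0.974 for rhoab, so that wnk3, TFPI2 and SEMA3A were in both lists. The clock gene PER2 averaged 45.5 ± 29.2 TPM at 7 dpi and 114 ± 29.7 uninjured, and RND3 averaged 63.7 ± 21.0 TPM and 201 ± 64.8 TPM. The 7 libraries differ in injury and in pool, and such a correlation reads both.

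By list, over 16 libraries, the members with at least 5 TPM in 1 group ran from vessel genes at one end to fibroblast genes at the other. The median correlation with mb was 0.882 over 19 endothelial IDs, 6 of them above 0.9, 0.71 over 11 endocardial and 0.546 over 32 hypoxia response IDs. It was 0.177 over 18 general haem synthesis IDs and -0.221 over 6 red cell IDs. It was -0.532 over 20 sarcomere IDs, 18 of them below 0, and -0.866 over 15 fibroblast and epicardial IDs. Within the 7 mCherry-positive libraries the picture was different. The sarcomere median there was 0.135, with 5 of 20 IDs below 0, the endothelial median 0.471, with 5 of 19 below 0, and all 17 macrophage and leukocyte IDs were below 0, with a median of -0.344. The place of mb beside endothelial genes and away from sarcomere genes over 16 libraries thus describes differences between sorts, in libraries that include no sort of cardiomyocytes.

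**Figure D4:**
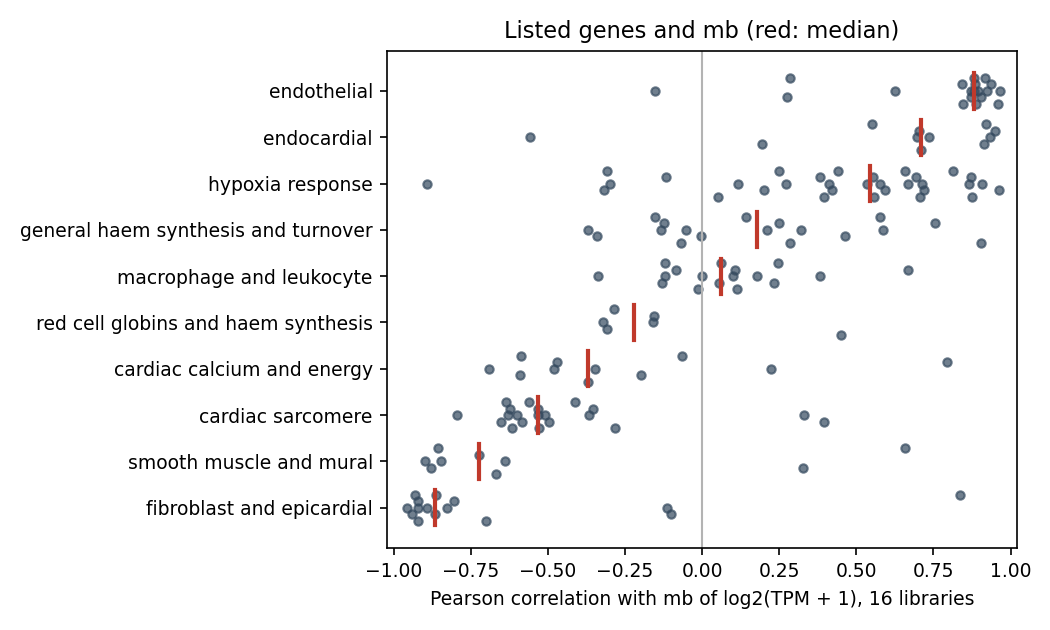
Pearson correlation with mb of log2(TPM + 1) over 16 libraries for each listed ID with a mean of at least 5 TPM in 1 group (points), by gene list, with the list's median as a red bar. The endothelial median is 0.882, the sarcomere median -0.532 and the fibroblast and epicardial median -0.866.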

How the data were processed

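The 16 libraries hold RNA of sorted cells. Per the labels' protocols, 0.2 to 0.6 ng of total RNA was amplified (Ovation Single Cell kit; a TruSeq kit is also named) and read as single 60-base reads, and low input adds spread between libraries. The authors deposited 1 table of TPM per gene ID, a unit read from its column totals of 999999 to 1000001. RSEM 1.2.25, cutadapt, CASAVA 1.8.2 and the build Zv9 are named per the submitters' processing notes, and the annotation is not given in the sources used here. Where transcripts are alike, RSEM estimates how their common reads divide. Depth is unknown, since TPM keeps no counts, so no interval or floor is given. P-values measure the spread between sorts of pooled hearts.

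The name table gave symbols for 25925 IDs. limma 3.58.1 (R 4.3.3, trend option) was fitted on log2(TPM + 1), 1 mean per group, for the 19039 IDs that reached 1 TPM in 3 or more libraries, and checked on simulated data. Levels, ratios and plots came from Python 3.11.15. The gene and the 16 gene lists (265 symbols, 82 matched exactly, 90 in another case, 36 by RefSeq synonym, 41 after dropping a paralog letter, 16 not matched, the ventricular myosin vmhc among them) were chosen with earlier results of these data known. Named were, per list and comparison, up to 4 called members by adjusted p, cardiac and globin members with at least 5 TPM in 1 group, and the 10 named genes most like mb. Markers of the sorts are given as levels, and 1 called gene is not reported here. Alternatives were other pseudocounts (0.1, 5), filters, scaling, fits on the compared groups alone, pools 2 to 8 and without each library. Citrine-positive and double-negative libraries with the same pool number correlated at 0.163, 0.227 and 0.19 after group means were removed. Unlike numbers gave similar values, 0.167 for citrine-positive pool 7 with double-negative pool 6, and 0.166 for citrine-positive pool 9 with double-negative pool 10. Values between pools 5 to 8 and pools 9 and 10 were negative, down to -0.28. The numbers were therefore not shown to pair these libraries. With the pool block 934 IDs were called there, and without it 1876.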

Additional observations from a re-analysis of the deposited data

Results flagged for a closer look

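In groups of 4 and 6 libraries, mb, MYL7, their ratio and the ratio of mb to kdrl had no library set apart. Groups of 3 libraries were not examined in this way. Among those, citrine-positive pool 7 had 1831 TPM of MYL7 against 120 and 146 in pools 9 and 10. Its sarcomere sum without tpm4a was 8582 TPM against 618 and 711. Over 57 measures and 114 groups, 7 libraries stood apart from all others of their group by Dixon's 95% limit, and chance gives about 1 in 20 groups. Of these, 4 were mCherry-positive pool 5 at 7 dpi: xgb with 38.5 TPM against 0 to 0.84 in the other 3 libraries, FABP3, a fatty acid carrier of heart muscle, with 59.6 against 0 to 2.34, SFRP5 with 65.0 against 27.1 to 28.1, and IGFBP1 with 9.86 against 0.84 to 2.14. mb had 7679 TPM in that library, the highest of its group. The light chain cmlc1 had 39.3 TPM in mCherry-positive pool 7 at 7 dpi against 3.91 to 7.23 in the others. In double-negative cells, gnb1b had 86.6 TPM in pool 6 against 43.4 to 56.5, and gpx1a had 240.0 in pool 7 against 67.7 to 130.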

How the results depend on the processing

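Of 69 alternative values for mb and its ratio to MYL7, 66 moved by less than the spread between replicates. Of the 69, 41 left out 1 library each. In groups of 3 or more libraries that cannot move a mean by as much as this spread, so those 41 say nothing on stability by this rule. The pseudocounts of 0.1 and 5 could hardly move mb either, with at least 158 TPM in every library. For mb against citrine-positive cells the spread was wide, 1.085 on the log2 scale. The mb log2 difference of mCherry-positive against citrine-positive cells fell to 2.81 within pools 2 to 8, the mb to MYL7 difference of 7 dpi against uninjured cells was -0.85 with the sarcomere sum without tpm4a (chosen after seeing the data), and that against double-negative cells, 5.46, was 4.02 with the whole sarcomere sum. Without 1 library each, the mb differences ran from -0.97 to -0.64 (7 dpi against uninjured), 2.39 to 2.73 (against double-negative) and 3.80 to 5.13 (against citrine-positive), and the ratio differences from -0.40 to 0.33 and 5.32 to 5.62. Same-numbered mCherry-positive and double-negative libraries correlated at 0.0471, 0.146, 0.0181 and 0.368, so the numbers were not shown to pair them. As a replicate block they gave mb differences of 2.34 and, against citrine-positive cells, 3.65, a ratio difference of 5.44, and 607 called IDs in place of 2083 and 0 in place of 2268 (limma, with 2063 at an unadjusted p under 0.05 on 2 shared pools), so that no gene was called against citrine-positive cells in that fit.

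Of 64 alternative counts, 54 stayed within 1.5 times. The 132 calls of 7 dpi against uninjured cells became 86 with a pseudocount of 5, 0 in a fit on these groups alone and 83 to 205 without 1 library. Against citrine-positive cells, 2268 became 1082 on the groups alone and 1510 within pools 2 to 8, and 1712 to 2657 without 1 library; against double-negative cells, 1472 to 2508. Citrine-positive against double-negative cells, 1876, became 896 within pools 2 to 8, 934 with the block and 1285 to 1905 without 1 library. The causes were not tested. Without counts, the precision of low TPM such as those of sarcomere genes in mCherry-positive cells is unknown.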
